A study of Oryza sativa with 12 samples.

Results

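The genotype by salt interaction asks of each gene whether its response to NaCl was the same in roots that overexpress OsERF106MZ as in roots of the wild type. All 12 libraries of the series entered it, and 24922 of the 26611 genes listed at either NaCl level could be tested, since only these are listed at both. The salt effect of a gene is its mean log2(normalized count + 1) at 150 mM NaCl minus that at 0 mM NaCl within a genotype, and the interaction is the salt effect in OE1 minus the salt effect in TNG67. A gene was called when the interaction had an adjusted p below 0.05 (limma, Benjamini-Hochberg over all 24922 genes).

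TNG67 is Tainung 67, a japonica rice cultivar and the wild type here, and OE1 is 1 line of it that carries OsERF106MZ behind the 35S promoter, which is active in most plant cells. Roots were taken from 7-day-old seedlings kept for a further 24 h at 150 or at 0 mM NaCl, with 3 libraries each of OE1 at 150 mM, OE1 at 0 mM, TNG67 at 150 mM and TNG67 at 0 mM NaCl. Each library was made from the pooled tissue of several seedlings. The sources differ on the tissue, since the sample labels give roots and the methods the belowground parts, whereas the design text of the series names terrestrial parts; it is called roots here, with root and green-tissue markers given beside the results. Since OE1 is a single line, effects of the overexpressed gene cannot be told apart from those of the insertion site or of the line's history.

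OsERF106MZ belongs to the AP2/ERF family of plant transcription factors, many of which act downstream of ethylene or of stress. Salt reaches roots first as an osmotic stress and then as an excess of sodium ions. Roots are known to answer by slowing elongation and cell wall synthesis, by moving potassium, sodium and water differently, and by turning on abscisic acid, jasmonate and defence genes. An interaction gene is one whose place in this response depended on the genotype. Arithmetically it can come from a difference between the genotypes at 0 mM NaCl, at 150 mM NaCl or at both.

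The libraries held 16326661 to 22426883 reads, and log2 read counts of replicates correlated at 0.986 or above across genes. Os08g0537900, the OsERF106MZ gene, had 9621, 10547 and 9633 normalized counts in OE1 at 150 mM and 10262, 10125 and 9134 at 0 mM, against 776, 667 and 727 in TNG67 at 150 mM and 958, 921 and 749 at 0 mM. The OE1 libraries all lay far above the TNG67 libraries, and the interaction was 0.28 ± 0.12 (SE, adjusted p = 0.138), not called in the fit over all 12 libraries but called without replicate 3 of TNG67 at 0 mM (0.39, adjusted p = 0.0226). In the other fits with a library left out and all other settings its adjusted p was 0.0859 to 0.312. Reads from the transgene and from the native gene cannot be told apart. Of 5 root markers sought, 4 were in the tables. The root-specific gene OsRCc3 (Os02g0662000) ranged from 6826 to 9221 normalized counts in OE1 at 150 mM and from 19789 to 22530 at 0 mM, and from 2221 to 2914 in TNG67 at 150 mM and from 19476 to 20867 at 0 mM, and the interaction was 1.54 ± 0.16 (SE, adjusted p = 7.17e-05). The silicon transporters Lsi1 (Os02g0745100) and Lsi2 (Os03g0107300) stood at 3571 normalized counts or more in every library, and the iron transporter OsIRT1 (Os03g0667500) at 10.4 to 62.5. Genes of green tissue were detected as well, at 0.0099 to 0.12% of all normalized counts, and are described with the photosynthesis genes. In bulk roots, fewer cells of a type and less RNA per cell cannot be told apart.

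The salt response of OE1 was smaller in size than that of TNG67, and most interaction genes were genes whose response was weaker in OE1 or passed the test in TNG67 alone. The interaction was called in 2833 genes, 11.4% of those tested. The salt effect was more positive in OE1 in 1296 of them (5.2% of all genes) and more negative in OE1 in 1537 (6.17%). With the libraries scaled by their total reads instead, 1780 were more positive and 1175 more negative, so the split between the directions depends on the scaling. At an unadjusted p below 0.05 there were 6644 genes. The count fell to 1765 without replicate 1 of TNG67 at 0 mM NaCl and to 1805 without replicate 1 of OE1 at 0 mM NaCl, and to 1529 when limma was run without its trend and robust options.

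Among called genes the interaction had a median size of 0.67 on the log2 scale, with quartiles of 0.46 and 1.06. It was above 1 in 787 genes and above 2 in 156. Over all genes, the salt effects had an SD of 0.77 in OE1 and 0.99 in TNG67, a ratio of 0.776, which stayed between 0.757 and 0.793 with any 1 library left out. The quartiles of the salt effect were -0.26 and 0.27 in OE1 and -0.41 and 0.36 in TNG67. Across genes the salt effects of the genotypes correlated at 0.84, a description only, since genes are not independent replicates. The salt effect itself was called in 9667 genes in OE1 (38.8%) and in 13589 in TNG67 (54.5%), and of 8064 genes called in both, 7965 had the same sign.

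**Figure D1:**
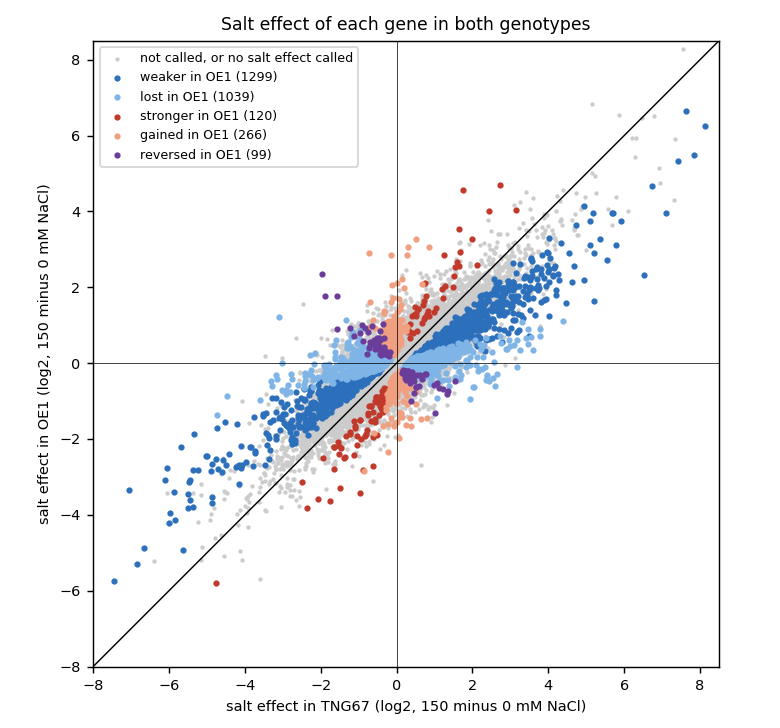
Salt effect of each of the 24922 genes in OE1 (vertical axis) and in TNG67 (horizontal axis), both as log2 at 150 minus 0 mM NaCl; the diagonal marks equal effects, and coloured points are genes called for the interaction, by shape. The 1299 weaker and 1039 lost genes lie between the diagonal and the horizontal line of no effect in OE1, or near that line, and outnumber the 120 stronger and 266 gained ones.

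The called genes were sorted by the salt effects of each genotype, as a description without a further test. A response was weaker when the salt effect was called in both genotypes with the same sign and was smaller in OE1, lost when it was called in TNG67 alone, stronger when it was called in both and larger in OE1, gained when it was called in OE1 alone, and reversed when it was called in both with opposite signs. The weaker class held 1299 genes, the lost class 1039, the gained class 266, the stronger class 120 and the reversed class 99, and 10 genes had no salt effect called in either genotype. Weaker and lost genes together made up 82.5% of the called genes, and stronger and gained genes 13.6%. These shares varied little, since the first lay between 81.4 and 84.8% when any 1 library was removed. With salt effects called only beyond a log2 fold change of 1, it was 45% of the same 2833 called genes, since fewer salt effects pass. There were then 465 weaker and 809 lost genes against 43 stronger, 119 gained and 4 reversed ones. The counts themselves moved by more than 1.5 times without some single libraries. Replicate 1 of OE1 at 0 mM left 843 weaker, 679 lost, 148 gained and 51 reversed genes, and replicate 1 of TNG67 at 0 mM left 585 lost, 177 gained, 71 stronger and 61 reversed genes when each was taken out. Without replicate 1 of OE1 at 150 mM, 151 gained and 59 reversed genes were counted, and without its replicate 2 there were 61 reversed. Without replicate 2 of TNG67 at 150 mM there were 644 lost and 79 stronger genes, and without its replicate 1 there were 78 stronger.

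In the 708 weaker genes that TNG67 raised, the median salt effect was 0.79 in OE1 and 1.62 in TNG67. The 591 weaker genes that TNG67 lowered had medians of -0.66 in OE1 and -1.34 in TNG67. Among the 551 lost genes that rose in TNG67 the medians were 0.04 in OE1 and 0.63 in TNG67, and among the 488 that fell they were -0.04 in OE1 and -0.69 in TNG67.

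The NaCl level at which the genotypes themselves differed was read from the tests of OE1 against TNG67 at each level, which called 6419 genes at 150 mM (25.8%) and 5493 at 0 mM NaCl (22%). Of the 2833 interaction genes, OE1 and TNG67 differed only at 150 mM in 1245 (43.9%) and only at 0 mM in 936 (33%). At both levels they differed in opposite directions in 225 and in the same direction in 268, and at neither in 159. Weaker rises were mostly a matter of the salt-treated roots, with 385 genes differing at 150 mM only and 133 at 0 mM only. Weaker falls were divided evenly, with 220 at 150 mM only and 235 at 0 mM only. The gained rises leaned to the untreated roots, with 39 genes at 150 mM only and 60 at 0 mM only.

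**Figure D2:**
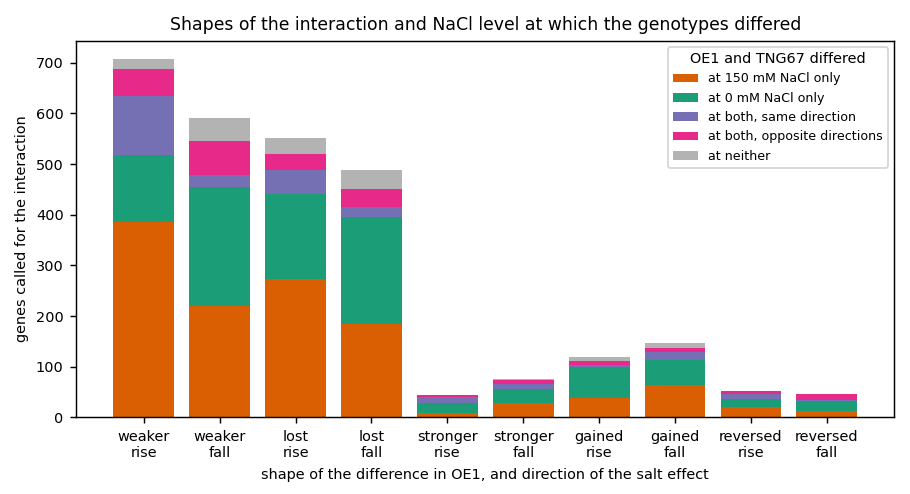
Number of interaction genes (vertical axis) in each shape, divided by the direction of the salt effect and, by colour, by the NaCl level at which OE1 and TNG67 differed. Weaker rises are the tallest bar, with 708 genes, of which 385 differed at 150 mM NaCl only.

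Some of the largest interactions were rises in both genotypes that were smaller in OE1. Os01g0794400, a protein with a thioredoxin domain, a fold that exchanges disulfide bonds, had 324, 411 and 307 normalized counts in OE1 at 150 mM and 70.6, 59.6 and 75.1 at 0 mM, against 316, 273 and 319.6 in TNG67 at 150 mM and 2.24, 4.24 and 1.07 at 0 mM. The salt-treated groups overlap, and the difference lies in the untreated roots, where every OE1 library was above every TNG67 library. Its salt effect was 2.32 in OE1 and 6.53 in TNG67, and its interaction was -4.21 ± 0.36 (SE, adjusted p = 4.7e-06). Os09g0448200, described as a high-affinity potassium transporter, a class of carrier that takes up K+, showed the other pattern, with 32, 44.2 and 67.4 normalized counts in OE1 at 150 mM and 19.9, 11.1 and 12.5 at 0 mM, against 411, 732 and 375 in TNG67 at 150 mM and 8.95, 11.7 and 17.2 at 0 mM. Here the untreated groups overlap and the salt-treated TNG67 libraries stand apart. Its salt effect was 1.63 in OE1 and 5.20 in TNG67 (interaction -3.57 ± 0.45 SE, adjusted p = 0.000189). The O-methyltransferase gene Os04g0104900, of a family that methylates phenolic compounds, likewise had 182, 240.0 and 468 normalized counts in OE1 at 150 mM and 17.7, 14.1 and 18.8 at 0 mM, against 2574, 3052 and 2892 in TNG67 at 150 mM and 19, 23.3 and 17.2 at 0 mM. Its interaction was -3.15 ± 0.37 (SE, adjusted p = 0.000208), and the call was lost with edgeR and with limma-voom. The untreated groups overlap, and treated TNG67 was above all other libraries. For Os07g0684000, a protein with a ricin B-related lectin domain, which binds sugars, the interaction was -2.88 (adjusted p = 0.000455). With limma-voom the call of Os09g0448200 was also lost, as were those of Os05g0217800, Os10g0137300 and Os01g0584900, described further on.

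The smallest p in the whole table belonged to Os11g0213000, a protein kinase gene with 1460.0, 1312 and 1638 normalized counts in OE1 at 150 mM and 852, 897 and 926 at 0 mM, against 896, 956 and 844 in TNG67 at 150 mM and 134, 128 and 171 at 0 mM. Untreated OE1 overlapped with salt-treated TNG67, and OE1 was above TNG67 at either NaCl level without overlap. Its salt effect was 0.71 in OE1 and 2.64 in TNG67 (interaction -1.92 ± 0.14 SE, adjusted p = 1.97e-06). Among the 10 smallest p-values were also biosynthetic enzymes that rose less in OE1. Os02g0266000, which encodes phosphoribosylanthranilate isomerase, an enzyme of tryptophan synthesis, had 492, 459 and 644 normalized counts in OE1 at 150 mM and 219.6, 230.2 and 194 at 0 mM, against 2087, 2189.5 and 1852 in TNG67 at 150 mM and 228, 204 and 233 at 0 mM. Os02g0680600, the MECDP synthase of the plastid isoprenoid (MEP) pathway, had 325, 327 and 421 normalized counts in OE1 at 150 mM and 216, 227 and 229 at 0 mM, against 1213, 1373 and 1152 in TNG67 at 150 mM and 259, 267 and 283 at 0 mM. In both, all OE1 libraries at 150 mM lay below all TNG67 libraries at 150 mM, with interactions of -1.91 and -1.54. Os03g0835900, a ferredoxin III, an electron carrier, had a salt effect of 0.38 in OE1 and 1.40 in TNG67. Another enzyme of the MEP pathway, the reductoisomerase gene Os01g0106900, had 995, 868 and 1913 normalized counts in OE1 at 150 mM and 622, 588 and 645 at 0 mM, against 6489.5, 9876 and 5731 in TNG67 at 150 mM and 854, 867 and 934 at 0 mM, and the interaction was -2.08 ± 0.42 (SE, adjusted p = 0.0158). Treated TNG67 stood above all other libraries.

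The other genes of the 10 smallest p-values were a transcription factor of phosphate signalling, a Myb/SANT-like gene and 3 genes without a named function. Os02g0139000, the phosphate factor, had 1881, 2115 and 2143 normalized counts in OE1 at 150 mM and 967, 994 and 995 at 0 mM, against 3631, 3535 and 3242 in TNG67 at 150 mM and 846, 843 and 897 at 0 mM. Its salt effect was 1.05 in OE1 and 2.01 in TNG67, and OE1 was below TNG67 with salt and above it without. The Myb/SANT-like gene Os09g0248900 had a salt effect of -0.36 in OE1 and -1.89 in TNG67, with an interaction of 1.53. Of the unnamed genes, Os05g0209500 had an interaction of -1.25, Os07g0585900 one of -2.16 and Os05g0363500 one of 1.0.

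**Figure D3:**
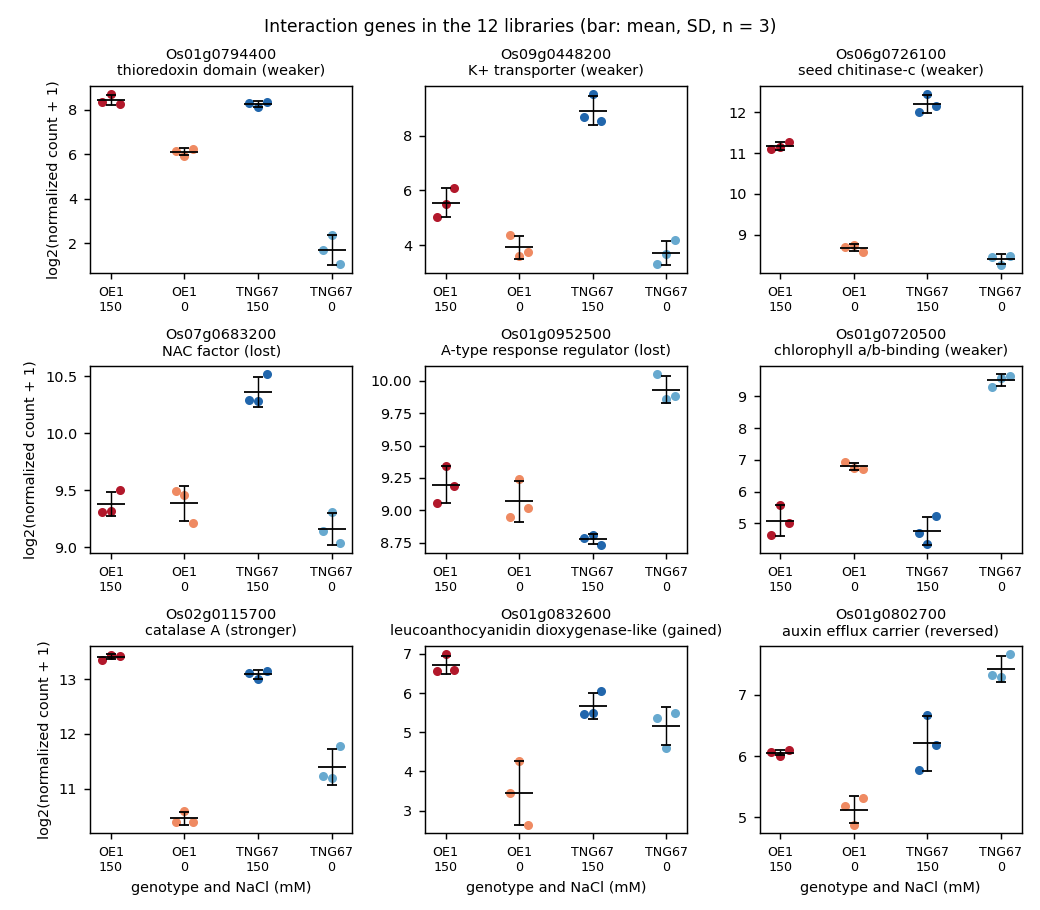
Values of 9 interaction genes in the 12 libraries, as log2(normalized count + 1), with OE1 at 150 and 0 mM NaCl left of TNG67 at 150 and 0 mM; points are libraries, and bars are the mean and SD of 3. Os09g0448200 and Os06g0726100 are highest in TNG67 at 150 mM NaCl, whereas Os01g0794400 is lowest in TNG67 at 0 mM.

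Rises that were called in TNG67 alone included genes of nitrogen recycling, peptide signalling and flavin-dependent oxidation. Os02g0650900, a glutamate dehydrogenase, which links glutamate to carbon metabolism, had 23, 19.1 and 44.9 normalized counts in OE1 at 150 mM and 12.1, 15.1 and 22.9 at 0 mM, against 223, 158 and 197 in TNG67 at 150 mM and 14.6, 12.7 and 11.8 at 0 mM. Only TNG67 at 150 mM was high, apart from all other libraries, and the interaction was -3.07 ± 0.43 (SE, adjusted p = 0.000269). Os07g0124100, a precursor of phytosulfokine, a sulfated peptide that promotes cell growth, had 37, 41.2 and 76.2 normalized counts in OE1 at 150 mM and 32, 32.3 and 16.7 at 0 mM, against 149, 250.0 and 138 in TNG67 at 150 mM and 19, 8.48 and 9.65 at 0 mM. The untreated groups overlap, TNG67 at 150 mM was above all other libraries, and the interaction was -2.89 ± 0.50 (SE, adjusted p = 0.00213). Os06g0549900, an FAD-linked oxidase, had a salt effect of 0.48 in OE1 and 3.09 in TNG67 (adjusted p of the interaction 1.77e-05). A flavanone 3-hydroxylase-like gene, Os04g0581000, had an interaction of -3.28, and its call was lost without any one of the 3 libraries of OE1 at 0 mM, replicates 1 or 2 of OE1 at 150 mM and replicates 1 or 2 of TNG67 at 150 mM, with adjusted p of 0.0556 to 0.0891, and with edgeR, limma-voom and the replicate block.

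Falls that were called in TNG67 alone included the following genes. Os03g0103100, described as induced by physical impedance, had 2851, 3357 and 3459.6 normalized counts in OE1 at 150 mM and 3218, 6291 and 5395 at 0 mM, against 1366, 1750.1 and 1312 in TNG67 at 150 mM and 12079, 8629 and 11626 at 0 mM. Every TNG67 library at 0 mM was above, and every TNG67 library at 150 mM below, all 6 OE1 libraries, and the interaction was 2.29 ± 0.35 (SE, adjusted p = 0.00511). Os05g0217800, a BURP domain protein of the cell wall family, had 2.0, 6.03 and 8.02 normalized counts in OE1 at 150 mM and 4.41, 12.1 and 15.6 at 0 mM, against 19.6, 6.84 and 6.68 in TNG67 at 150 mM and 163, 231 and 345 at 0 mM. Os07g0484200, an actin-depolymerizing factor, which severs actin filaments, had 58, 38.2 and 46.5 normalized counts in OE1 at 150 mM and 44.1, 141 and 73 at 0 mM, against 20.5, 22.5 and 35.3 in TNG67 at 150 mM and 186, 222 and 231 at 0 mM. In both genes the untreated TNG67 libraries stood apart from all others, with interactions of 3.58 and 2.31. The peroxidase-domain gene Os10g0536600 was also highest in untreated TNG67, with an interaction of 2.66 (adjusted p = 0.0118).

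Stronger responses were few but included catalase A and enzymes of lignin synthesis. The list of reactive oxygen enzymes had 26 of 145 members called, 9 more positive and 17 more negative in OE1, with 15 lost and 1 stronger. With any 1 library left out, 3 to 11 were more positive and 9 to 19 more negative. With libraries scaled by total reads 14 were more positive and 12 more negative, so this list has no settled direction. Os02g0115700, which encodes catalase A, an enzyme that splits hydrogen peroxide, had 10489, 11126 and 10935 normalized counts in OE1 at 150 mM and 1346, 1555 and 1341 at 0 mM, against 8879.8, 8160.5 and 9062 in TNG67 at 150 mM and 2401, 2346 and 3518 at 0 mM. OE1 was below TNG67 without salt and above it with salt, and no libraries overlap. Its salt effect was 2.94 in OE1 and 1.68 in TNG67 (interaction 1.26 ± 0.18 SE, adjusted p = 0.00114). Os02g0811800, described as cinnamoyl-CoA reductase, the first committed enzyme of monolignol synthesis, had 299, 333 and 396 normalized counts in OE1 at 150 mM and 7.72, 18.2 and 12.5 at 0 mM, against 192, 182 and 166 in TNG67 at 150 mM and 29.1, 21.2 and 30.0 at 0 mM. Treated OE1 was the highest group and untreated OE1 the lowest, without overlap. Phenylalanine ammonia-lyase Os04g0518100, the entry enzyme of the phenylpropanoid pathway, had a salt effect of 0.87 in OE1 and 0.25 in TNG67, an interaction of 0.62. A C13 endopeptidase gene, Os02g0644000, of the vacuolar processing protease family, had a salt effect of 3.27 in OE1 and 1.99 in TNG67. Os05g0246300, with a barwin-related domain, and Os10g0137300, described as BLN1-1, had interactions of 1.6 and 2.81. Stronger falls included the serine carboxypeptidase gene Os11g0431400, with 16, 11 and 13.6 normalized counts in OE1 at 150 mM and 135, 80.8 and 76.1 at 0 mM, against 122, 154 and 121 in TNG67 at 150 mM and 210.4, 209 and 194 at 0 mM. Treated OE1 lay below all other libraries. Os02g0306401, a nicotianamine aminotransferase, which makes precursors of the iron-chelating phytosiderophores, had a salt effect of -2.81 in OE1 and -0.88 in TNG67. A carboxyl methyltransferase, Os11g0256900, and a short-chain dehydrogenase, Os12g0260500, had interactions of -1.79 and -1.38.

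Gained rises included Os01g0832600, a leucoanthocyanidin dioxygenase-like gene of the flavonoid family of enzymes, with 93.9, 126 and 94.7 normalized counts in OE1 at 150 mM and 9.93, 18.2 and 5.22 at 0 mM, against 43.5, 43.9 and 65.8 in TNG67 at 150 mM and 40.3, 23.3 and 44 at 0 mM. In OE1 the groups at 150 and 0 mM NaCl are far apart, and in TNG67 they overlap (interaction 2.74 ± 0.49 SE, adjusted p = 0.00223). Os03g0103300, a proline- or glycine-rich protein linked to germination in the cold, had 528, 859 and 702 normalized counts in OE1 at 150 mM and 238, 237 and 193 at 0 mM, against 252, 179 and 181 in TNG67 at 150 mM and 265, 176 and 241 at 0 mM. Only OE1 at 150 mM was raised, without overlap with any other group. Plantacyanin Os03g0259100, a blue copper protein, had an interaction of 1.79, and a soluble inorganic pyrophosphatase, Os05g0438500, one of 1.72. Gained falls included Os03g0432100, a pyruvate, phosphate dikinase, which makes phosphoenolpyruvate, with 1602, 1998 and 1902 normalized counts in OE1 at 150 mM and 5176, 5706 and 4098 at 0 mM, against 1069, 935 and 763 in TNG67 at 150 mM and 977, 969 and 1113 at 0 mM. OE1 was higher without salt and came nearer to TNG67 with it. Glutamate dehydrogenase Os04g0543900 fell in OE1, with a salt effect of -0.87, against 0.27 in TNG67, and for both named glutamate dehydrogenase genes the OE1 libraries at 150 mM lay below those of TNG67 without overlap. A dynein light chain gene, Os01g0760000, had an interaction of -1.35. Of 11 tested genes at 0 in all 6 TNG67 libraries, 2 were called. One is Os05g0276100, a K+ transporter of the endoplasmic reticulum, which had 94.9, 118 and 168 normalized counts in OE1 at 150 mM and 24.3, 24.2 and 36.5 at 0 mM and was listed at 0 in TNG67. Its interaction therefore restates the salt effect in OE1, and no fold is given for TNG67. Its call was lost without replicates 1 or 2 of OE1 at 0 mM or replicates 2 or 3 of OE1 at 150 mM, with adjusted p of 0.0555 to 0.0895, and also with edgeR, DESeq2, limma-voom and a pseudocount of 0.1.

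Reversed responses included Os01g0802700, an auxin efflux carrier, of the family that exports or moves auxin within cells, with 66, 63.3 and 67.4 normalized counts in OE1 at 150 mM and 35.3, 28.3 and 38.6 at 0 mM, against 53.7, 101 and 71.6 in TNG67 at 150 mM and 159, 156 and 202 at 0 mM. Salt raised it in OE1 and lowered it in TNG67 (interaction 2.15 ± 0.29 SE, adjusted p = 0.000232). Os01g0869800, the 22-kDa photosystem II protein of photoprotection, and Os02g0786900, a PR-1 precursor of the pathogenesis-related family, also rose in OE1 and fell in TNG67, with interactions of 1.84 and 1.57. A GDSL lipase, Os01g0214600, had an interaction of 1.76. In the other direction, the short-chain dehydrogenase gene Os07g0663800 had 1208, 1623 and 1827 normalized counts in OE1 at 150 mM and 2479, 1966 and 2012 at 0 mM, against 3277, 4110.5 and 3102 in TNG67 at 150 mM and 1157, 1214 and 1182 at 0 mM. It fell in OE1 and rose in TNG67, where every salt-treated library was above all others. Os09g0358000, Os08g0200100 and Os08g0425500 reversed in the same sense, with interactions of -2.08, -2.16 and -1.55.

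The described functions of all tested genes were sorted into 51 lists, and each list is read against the 11.4% called over all genes, 5.2% more positive and 6.17% more negative in OE1. Genes with low values are rarely called, at 2.45% of those with a mean below 20 normalized counts against 12.5% of the others, and a list's share depends on its level too. The share was above that of all genes in 41 lists. The share of all genes is lowered by genes without a known function and non-coding transcripts, called at 7.44 and 5.48%. A list only slightly above 11.4%, such as homeobox factors at 11.6%, is therefore not set apart by its share. It was highest for photosynthesis, cellulose synthases, glutathione S-transferases, cytokinin genes, class III peroxidases, expansins and pathogenesis-related proteins. The median interaction was 0.0036 over all genes.

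**Figure D4:**
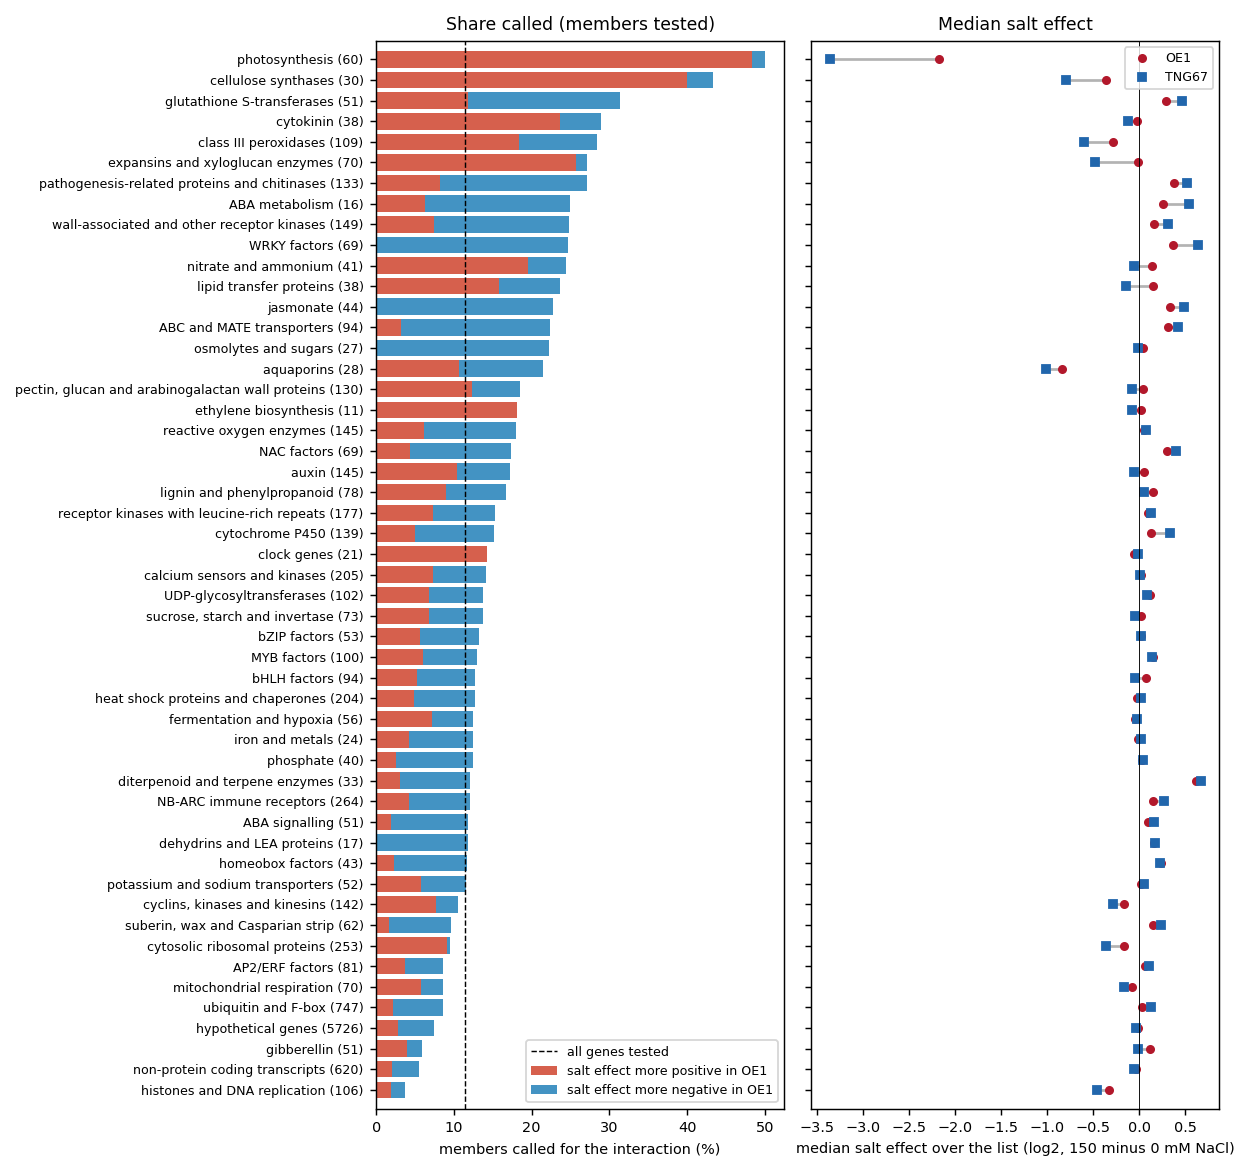
Left, the percentage of each list's members called for the interaction, in red where the salt effect was more positive in OE1 and in blue where it was more negative, with the dashed line at 11.4% for all genes. Right, the median salt effect (log2) of each list in OE1 (circles) and TNG67 (squares), which are farthest apart for photosynthesis, at -2.17 and -3.36.

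Among WRKY and NAC factors, the called genes mostly had a more negative salt effect in OE1. Other regulator lists were nearer to even. Of 205 calcium sensors and kinases, 15 were more positive and 14 more negative, and of 177 receptor kinases with leucine-rich repeats 13 and 14. MYB factors had 6 and 7, bHLH factors 5 and 7 and bZIP factors 3 and 4, and these counts moved with single libraries left out. NB-ARC immune receptors had 11 and 21 of 264, but 14 and 15 with libraries scaled by total reads. The WRKY factors, plant transcription factors that bind W-box promoters in immune and stress responses, had 17 of 69 members called, all 17 more negative in OE1. With the data of replicate 3 of TNG67 at 0 mM left out, 1 WRKY gene was called as more positive. Their median salt effect was 0.37 in OE1 and 0.64 in TNG67, and 12 of the 17 were weaker rises. Os05g0537100, described as WRKY transcription factor 10, had 325, 389.6 and 393 normalized counts in OE1 at 150 mM and 132, 136 and 103 at 0 mM, against 593, 438 and 594 in TNG67 at 150 mM and 77.2, 68.9 and 72.9 at 0 mM. The salt-treated groups do not overlap, and neither do the untreated ones, in which OE1 was higher. Os01g0584900, a WRKY gene described as 28-like, had a salt effect of 2.29 in OE1 and 4.13 in TNG67, and Os05g0183100 had an interaction of -1.08. Without replicate 1 of OE1 at 0 mM, 10 WRKY genes were called as more negative. NAC factors, another plant-specific family, had 9 members more negative and 3 more positive in OE1 of 69. Os07g0683200, a NAC gene, had 636, 639.7 and 724 normalized counts in OE1 at 150 mM and 722, 702 and 592 at 0 mM, against 1256, 1248 and 1465 in TNG67 at 150 mM and 564, 635 and 523 at 0 mM, so that only TNG67 at 150 mM was raised (interaction -1.21 ± 0.13 SE, adjusted p = 3.54e-05). An exception was the NAM/CUC2-like gene Os04g0515900, which had a salt effect of -2.46 in OE1 and -5.03 in TNG67.

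Pathogenesis-related proteins and chitinases, which attack fungal walls or accumulate on infection, had 25 of 133 members more negative and 11 more positive in OE1. Their median salt effect was 0.38 in OE1 and 0.52 in TNG67. The seed chitinase gene Os06g0726100 had 2195, 2257 and 2470.3 normalized counts in OE1 at 150 mM and 417, 430.0 and 381 at 0 mM, against 4113, 5566 and 4523 in TNG67 at 150 mM and 347, 306 and 357 at 0 mM. OE1 lay below TNG67 at 150 mM and above it at 0 mM, without overlap, and the interaction was -1.31 ± 0.14 (SE, adjusted p = 2.38e-05). A class III chitinase homologue, Os11g0701500, had a salt effect of 1.24 in OE1 and 4.01 in TNG67, and a class 1 pathogenesis-related gene, Os07g0127700, one of 1.99 in OE1 and 3.68 in TNG67. The Bowman-Birk proteinase inhibitor Os01g0124100 had an interaction of -0.85. Wall-associated and other receptor kinases, which sense walls and pathogens at the cell surface, had 26 of 149 more negative and 11 more positive. The DUF26 gene Os05g0112800 had a salt effect of 1.69 in OE1 and 3.46 in TNG67. The 11 more positive ones were 5 without replicate 1 of OE1 at 0 mM, 6 without replicate 1 of TNG67 at 0 mM, and 7 and 6 without replicates 1 and 2 of OE1 at 150 mM.

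Jasmonate is a lipid-derived hormone made from fatty acids by lipoxygenases and allene oxide synthases, and TIFY (JAZ) proteins repress its response. Of 44 genes, 10 were called, all 10 more negative in OE1, whereas 2 were called as more positive with libraries scaled by total reads or without replicate 3 of TNG67 at 150 mM. The median salt effect was 0.34 in OE1 and 0.49 in TNG67. The allene oxide synthase gene Os02g0218700 had 23, 33.1 and 44.1 normalized counts in OE1 at 150 mM and 34.2, 33.3 and 40.7 at 0 mM, against 75, 117 and 85.9 in TNG67 at 150 mM and 12.3, 20.1 and 24.7 at 0 mM, and the interaction was -2.4 ± 0.40 (SE, adjusted p = 0.00113). Treated TNG67 was above all other libraries, and untreated OE1 above untreated TNG67. A TIFY gene, Os03g0180900, had 1417, 1394 and 1502 normalized counts in OE1 at 150 mM and 764, 601 and 603 at 0 mM, against 1416, 1207 and 1479.7 in TNG67 at 150 mM and 251, 277 and 348 at 0 mM. There the salt-treated groups overlap and OE1 was higher without salt. Lipoxygenase Os03g0700400 had a salt effect of 0.32 in OE1 and 1.40 in TNG67, and lipoxygenase Os03g0738600, a gained fall, had a salt effect of -1.06 in OE1 and -0.01 in TNG67.

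ABC and MATE transporters, which move toxins and secondary metabolites across membranes, had 18 of 94 members more negative and 3 more positive in OE1. The MRP-like gene Os04g0209200 had 1905, 1774 and 2246 normalized counts in OE1 at 150 mM and 570.5, 372 and 529 at 0 mM, against 3318, 3333 and 2770.5 in TNG67 at 150 mM and 265, 266 and 384 at 0 mM, with OE1 below TNG67 at 150 mM and overlapping with it at 0 mM NaCl. The 3 more positive members were 1 without replicate 1 of OE1 at 0 mM, of TNG67 at 0 mM or of TNG67 at 150 mM. Glutathione S-transferases, which join glutathione to toxic compounds, had 10 of 51 more negative and 6 more positive, the second of which fell to 3 without replicates 2 or 3 of OE1 at 150 mM, replicate 1 of TNG67 at 0 mM or replicates 1 or 2 of TNG67 at 150 mM. Os09g0467200, described as GST 23, had an interaction of -0.62. Heat shock proteins and chaperones had 26 of 204 called, a share near that of all genes. Of these 10 were more positive and 16 more negative, numbers that were 2 and 10 without replicate 1 of OE1 at 0 mM and 4 and 10 without replicate 1 of OE1 at 150 mM. The more positive ones were 3 without replicate 1 of TNG67 at 0 mM, and 6 without replicate 3 of OE1 at 0 mM, replicate 2 of OE1 at 150 mM, replicates 2 or 3 of TNG67 at 0 mM or replicate 2 of TNG67 at 150 mM. With libraries scaled by total reads 15 were more positive and 13 more negative, which turns the majority. A heat shock protein 70 gene, Os03g0277300, had 1500.0, 1094 and 1425 normalized counts in OE1 at 150 mM and 1231, 1252 and 1294 at 0 mM, against 962, 1611 and 1415 in TNG67 at 150 mM and 346, 328 and 439 at 0 mM. Untreated TNG67 was low, and all other groups overlap (interaction -1.74 ± 0.27 SE, adjusted p = 0.00316). The cognate Os05g0460000 likewise had an interaction of -1.09.

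Among genes of cellulose synthesis and wall loosening, the called ones mostly had a more positive salt effect in OE1. Pectin, glucan and arabinogalactan proteins had 16 of 130 more positive and 8 more negative, the first 8 to 23 with any 1 library left out. Lignin and phenylpropanoid genes had 7 and 6 of 78, or 9 and 4 with libraries scaled by total reads. Suberin, wax and Casparian strip genes had 6 of 62 called, 9.68%, below the 11.4% of all genes. Of these 1 was more positive and 5 more negative, or 2 and 3 with that scaling. With any 1 library left out, 0 to 3 were more positive and 3 to 6 more negative. Cellulose synthases, which spin the glucan chains of the cell wall, and related proteins had 13 of 30 members called, 12 more positive and 1 more negative in OE1, with a median salt effect of -0.36 in OE1 and -0.80 in TNG67. Of these, 9 were weaker and 2 lost. Os01g0750300, a cellulose synthase, had 2535, 2219 and 1987 normalized counts in OE1 at 150 mM and 2965, 3442 and 3513 at 0 mM, against 1628, 1511 and 1852 in TNG67 at 150 mM and 4685, 4331 and 5297 at 0 mM. In untreated roots OE1 was lower and in treated roots higher than TNG67, without overlap in either (interaction 0.96 ± 0.14 SE, adjusted p = 0.000823). The secondary wall enzyme gene Os10g0467800 had 148, 120.5 and 111 normalized counts in OE1 at 150 mM and 139, 189 and 164 at 0 mM, against 66.5, 56.6 and 86.8 in TNG67 at 150 mM and 222, 183 and 252 at 0 mM. Treated TNG67 was below all other libraries. Os07g0252400, described as cellulose synthase-8, had an interaction of 0.46. The exception was Os07g0552800, a cellulose synthase family gene, which had a salt effect of 0.44 in OE1 and 1.85 in TNG67.

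Expansins, which loosen walls so that cells can grow, and xyloglucan enzymes, which cut and rejoin the polymers that tie cellulose together, had 18 of 70 members more positive and 1 more negative in OE1. The median salt effect was -0.01 in OE1 and -0.48 in TNG67. The shapes were mixed, with 8 weaker, 5 lost, 4 gained and 2 reversed. The alpha-expansin gene Os03g0155300 had 319, 247 and 236 normalized counts in OE1 at 150 mM and 186, 238 and 222 at 0 mM, against 205, 188 and 241 in TNG67 at 150 mM and 366, 331 and 294 at 0 mM, with a salt effect of 0.30 in OE1 and -0.64 in TNG67. The treated groups overlap, and untreated TNG67 was above untreated OE1. Os03g0155700, described as expansin-A15, had 24, 27.1 and 20.9 normalized counts in OE1 at 150 mM and 3.31, 2.02 and 2.09 at 0 mM, against 12.8, 6.84 and 19.1 in TNG67 at 150 mM and 14.6, 10.6 and 15 at 0 mM, low values throughout. Treated OE1 was above, and untreated OE1 below, all other libraries. Os10g0439200, expansin-A28, had an interaction of 2.5. The 1 gene in the other direction was the xyloglucan fucosyltransferase Os02g0275200, with a salt effect of 2.04 in OE1 and 3.93 in TNG67.

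Class III peroxidases, secreted enzymes that stiffen walls or make reactive oxygen there, had 20 of 109 members more positive and 11 more negative. Without replicate 3 of TNG67 at 150 mM, 31 were called as more positive. The median salt effect was -0.28 in OE1 and -0.60 in TNG67. Os05g0135000 had 599.6, 638 and 702 normalized counts in OE1 at 150 mM and 807, 1073 and 830.3 at 0 mM, against 263, 272 and 386 in TNG67 at 150 mM and 1353, 1215 and 1097 at 0 mM, and the interaction was 1.53 ± 0.21 (SE, adjusted p = 0.000697). Both OE1 groups lay between untreated and treated TNG67. In the other direction, Os07g0677200 had 793, 778 and 777 normalized counts in OE1 at 150 mM and 346, 396 and 426 at 0 mM, against 2555, 2981 and 2467 in TNG67 at 150 mM and 691, 635 and 772 at 0 mM. Treated TNG67 was highest and untreated OE1 lowest, without overlap. Its neighbour Os07g0677100, of the same family, had an interaction of -2.15, and reads that such close copies share may be uncertain. Laccase Os12g0259800, which can polymerize lignin, had a salt effect of -2.22 in OE1 and -3.85 in TNG67. Polygalacturonase Os05g0578600, which degrades pectin, had 129.9, 132 and 116 normalized counts in OE1 at 150 mM and 93.8, 168 and 186 at 0 mM, against 21.3, 26.4 and 25.8 in TNG67 at 150 mM and 147, 97.5 and 122 at 0 mM, with TNG67 at 150 mM below all other libraries and the untreated groups overlapping.

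Cytosolic ribosomal proteins, the parts of the protein synthesis machinery, were shifted as a group by little. Their median interaction was 0.21, with median salt effects of -0.16 in OE1 and -0.36 in TNG67. Of 253 members 24 were called, 9.49%, below the 11.4% of all genes, with 23 more positive and 1 more negative. The count of more positive genes rests on single libraries, as it was 4 without replicate 1 and 14 without replicate 3 of TNG67 at 0 mM, and 5 without replicate 1 of OE1 at 0 mM. Without the libraries at 150 mM it was 8 (TNG67 replicates 1 and 2), 74 (TNG67 replicate 3), 14 (OE1 replicate 1), 10 (OE1 replicate 2) and 15 (OE1 replicate 3). With libraries scaled by total reads it was 54. Os12g0167900, ribosomal protein L3, had an interaction of 0.36. Histone and DNA replication genes had 4 of 106 called, a share of 3.77%. Of the 4, 2 were more positive in OE1, and without replicate 3 of TNG67 at 150 mM 16 were. The more positive ones were 4 without replicate 3 of TNG67 at 0 mM and 6 with libraries scaled by total reads. They were 1 without replicate 1 of OE1 at 0 mM, replicate 2 of OE1 at 150 mM or replicate 1 of TNG67 at 0 mM, and 0 without replicate 2 of OE1 at 0 mM, replicates 1 or 3 of OE1 at 150 mM, replicate 2 of TNG67 at 0 mM or replicates 1 or 2 of TNG67 at 150 mM.

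Cytokinins are adenine-derived hormones that restrain root elongation, and their signal passes by histidine kinases to response regulators, of which the A-type are induced quickly and damp the signal. Of 38 genes, 9 were more positive and 2 more negative in OE1, and with any library left out 8 or 9 were called as more positive. The more negative ones ranged from 1 to 4, with 4 called without replicate 3 of TNG67 at 150 mM and 1 called without any one of replicate 1 of OE1 at 0 mM, replicate 1 of OE1 at 150 mM, replicates 1 or 2 of TNG67 at 0 mM and replicate 2 of TNG67 at 150 mM. The A-type response regulator Os01g0952500 had 533, 649.7 and 582 normalized counts in OE1 at 150 mM and 492, 606 and 516 at 0 mM, against 441, 447 and 425 in TNG67 at 150 mM and 1059.9, 931 and 943 at 0 mM. In TNG67 the salt-treated libraries were all lower than the untreated ones, whereas in OE1 the groups overlap (interaction 1.28 ± 0.13 SE, adjusted p = 1.68e-05). Os02g0557800, another A-type regulator, had 636, 615 and 578 normalized counts in OE1 at 150 mM and 1014, 1091 and 977 at 0 mM, against 364, 544 and 388 in TNG67 at 150 mM and 1558, 1507 and 1549 at 0 mM. Both OE1 groups lay between untreated TNG67 and treated TNG67. Further A-type regulators, Os02g0830200, Os11g0143300 and Os12g0139400, had interactions of 1.11, 1.13 and 1.1. The last pair are closely related copies, so their reads may be uncertain. The cis-zeatin O-glucosyltransferase Os04g0556500, which stores a cytokinin in an inactive form, had an interaction of 1.12.

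Auxin genes had 15 of 145 members more positive and 10 more negative, and the more negative ones were 6 without replicate 1 of TNG67 at 0 mM or without replicates 1 or 2 of TNG67 at 150 mM. Auxin patterns root growth and branching, and Aux/IAA proteins repress its response. The Aux/IAA gene Os03g0633500, described with lateral root initiation, had 175, 219 and 212 normalized counts in OE1 at 150 mM and 414, 431 and 389 at 0 mM, against 186, 199 and 197 in TNG67 at 150 mM and 795, 796 and 722 at 0 mM. The salt-treated groups overlap, and untreated TNG67 was above untreated OE1 (interaction 0.95 ± 0.14 SE, adjusted p = 0.000406). Os04g0288100, described as the auxin-binding protein ABP20, had 2113, 2495 and 3024 normalized counts in OE1 at 150 mM and 2209, 1750.4 and 2105 at 0 mM, against 9439, 10987 and 9870.3 in TNG67 at 150 mM and 2134, 1982 and 1942 at 0 mM. Only TNG67 at 150 mM stood apart there, and the interaction was -2.0 ± 0.16 (SE, adjusted p = 1.77e-05).

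Of 51 ABA signalling genes, 6 were called, 11.8%, which is near the share of all genes. Of these, 5 were more negative and 1 more positive in OE1, but 3 more negative and 4 more positive with libraries scaled by total reads, so the direction of this list depends on the scaling. Without replicate 1 of TNG67 at 0 or at 150 mM, 3 were more negative. The more positive ones were 0 without replicate 2 of OE1 at 150 mM and 2 without replicate 3 of OE1 at 0 or at 150 mM or replicates 1 or 3 of TNG67 at 0 mM. Protein phosphatases 2C, which hold ABA signalling back, gave Os06g0698300, with 115, 132 and 109 normalized counts in OE1 at 150 mM and 61.8, 58.5 and 70.9 at 0 mM, against 235, 247 and 226 in TNG67 at 150 mM and 62.7, 45.6 and 46.1 at 0 mM, and Os05g0537400, with an interaction of -0.6. For the first, the untreated groups overlap and treated TNG67 was highest. The bZIP factor Os01g0859300, described with ABA signal transduction, rose more in OE1 instead, with 968, 975 and 859 normalized counts in OE1 at 150 mM and 211, 174 and 180.5 at 0 mM, against 582, 643 and 435 in TNG67 at 150 mM and 175, 199 and 194 at 0 mM. The untreated groups overlap, treated OE1 was highest, and the interaction was 0.78 ± 0.17 (SE, adjusted p = 0.0084). Os09g0456200, an ABI5-like bZIP factor, had a salt effect of 0.22 in OE1 and 0.92 in TNG67. An ABA aldehyde oxidase, Os07g0164900, of the enzyme family that makes ABA from its aldehyde, had a salt effect of 0.45 in OE1 and 1.01 in TNG67. Another aldehyde oxidase gene of the ABA metabolism list, OsAO3 (Os07g0281700), went the other way at low values, with 17, 15.1 and 17.7 normalized counts in OE1 at 150 mM and 12.1, 11.1 and 8.34 at 0 mM, against 18.8, 19.5 and 3.82 in TNG67 at 150 mM and 36.9, 26.5 and 50.4 at 0 mM. The untreated OE1 libraries lay below the untreated TNG67 libraries, and the treated groups overlap. Its interaction was 2.21 ± 0.63 (SE, adjusted p = 0.0305), a call lost without any one of replicates 1 or 3 of OE1 at 0 mM, the 3 libraries of OE1 at 150 mM and replicates 1 or 3 of TNG67 at 0 mM, and also without limma's trend and robust options, with adjusted p of 0.0515 to 0.0816. Of the 16 genes of that list 4 were called, 3 of them more negative in OE1, and the more negative ones were 1 with libraries scaled by total reads. They were also 1 without replicate 3 of OE1 at 150 mM, replicates 1 or 2 of TNG67 at 0 mM or replicate 1 of TNG67 at 150 mM, and 5 without replicate 3 of TNG67 at 0 or at 150 mM. OsNPC3 (Os11g0593000), a phospholipase gene that the study relates to ABA sensitivity, was not called for the interaction. With any 1 library left out its interaction was -0.643 to -0.243, with a largest adjusted p of 0.532 (limma). It was also not called under 9 other settings.

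Ion and nutrient carriers were called at shares from 11.5 to 24.4%, against 11.4% of all genes. Potassium and sodium transporters, phosphate genes and iron and metal genes, at 11.5, 12.5 and 12.5%, were near the share of all genes. Aquaporins stood at 21.4% and nitrate and ammonium genes at 24.4%. Potassium and sodium transporters had 6 of 52 called, 3 in each direction (1 more positive without replicates 1 or 2 of OE1 at 0 mM or replicate 2 of OE1 at 150 mM, and 1 or 5 more negative without replicate 1 of TNG67 at 150 mM or replicate 3 of TNG67 at 0 mM), or 4 more positive and 1 more negative with libraries scaled by total reads, and besides the genes above these included the K+ channel beta subunit Os02g0817500, with an interaction of 0.54. Nitrate and ammonium genes had 8 of 41 more positive and 2 more negative, and the more positive ones fell to 4 without replicate 1 of OE1 at 0 mM, replicate 3 of TNG67 at 0 mM or replicate 1 of TNG67 at 150 mM, and to 5 without replicate 2 of OE1 at 0 mM, replicate 1 of OE1 at 150 mM, replicates 1 or 2 of TNG67 at 0 mM or replicate 3 of TNG67 at 150 mM. The plastid glutamine synthetase Os04g0659100, which assimilates ammonium, had 1869, 1384 and 1489.9 normalized counts in OE1 at 150 mM and 2788, 3699.7 and 3347 at 0 mM, against 568, 722 and 764 in TNG67 at 150 mM and 3452, 3061 and 3322 at 0 mM. In TNG67 the salt-treated libraries were lowest (interaction 1.21 ± 0.19 SE, adjusted p = 0.00274). Phosphate transporter Os03g0150600 had a salt effect of 0.57 in OE1 and 1.33 in TNG67. Aquaporins, the water channels of plant membranes, had 6 of 28 members called, 3 in each direction. With libraries scaled by total reads 6 were more positive and 2 more negative. Without replicate 3 of TNG67 at 0 or at 150 mM, 6 or 5 were more positive. Of the more positive ones, the delta-tonoplast intrinsic protein Os06g0336200 had 4827, 6374 and 5429 normalized counts in OE1 at 150 mM and 14507, 13335 and 14529 at 0 mM, against 3139, 2400.5 and 2956 in TNG67 at 150 mM and 13650.0, 13224 and 12238 at 0 mM, and the interaction was 0.85 ± 0.14 (SE, adjusted p = 0.00217). The untreated groups overlap, and treated TNG67 was lowest. The cell wall invertase Os04g0664800, which splits sucrose outside the cell, rose in TNG67 only, with salt effects of 0.18 in OE1 and 1.23 in TNG67. Trehalose-6-phosphate phosphatase Os10g0553300, of the pathway of a signalling sugar, had an interaction of -0.85.

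Genes of photosynthesis and chlorophyll synthesis, which are known from green tissue, had the highest share of all lists, with 30 of 60 called, 29 more positive and 1 more negative in OE1. Their median salt effect was -2.17 in OE1 and -3.36 in TNG67, and 27 of the 30 were weaker. Os01g0720500, a chlorophyll a/b-binding protein, which holds the light-harvesting pigments, had 24, 47.2 and 31.3 normalized counts in OE1 at 150 mM and 120.3, 107 and 104 at 0 mM, against 24.7, 19.5 and 36.3 in TNG67 at 150 mM and 625, 763 and 799 at 0 mM. The salt-treated groups overlap, and the untreated OE1 libraries were all below the untreated TNG67 libraries (interaction 3.03 ± 0.33 SE, adjusted p = 3.57e-05). Plastocyanin Os06g0101600, an electron carrier of the thylakoid, had 26, 38.2 and 46.5 normalized counts in OE1 at 150 mM and 279, 340.2 and 187 at 0 mM, against 9.38, 11.7 and 10.5 in TNG67 at 150 mM and 419, 426 and 606 at 0 mM. OE1 was lower than TNG67 without salt and higher with it. Magnesium-chelatase subunit H, Os03g0323200, which starts chlorophyll synthesis, had a salt effect of -2.18 in OE1 and -4.10 in TNG67. Outside the list, the transfactor-like gene Os06g0348800 and the glyceraldehyde-3-phosphate dehydrogenase gene Os03g0129300 were weaker falls too, with interactions of 3.47 and 3.45.

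The green-tissue markers, which are 37 genes for RuBisCO small chain, chlorophyll-binding proteins and photosystem subunits that mostly belong to the same list, summed to 1765 to 2661 normalized counts in OE1 at 150 mM and 7047 to 10995 at 0 mM, against 1917 to 2104 in TNG67 at 150 mM and 15500 to 22207 at 0 mM. None of the 37 was at 0 in every library, and 17 were called, 16 of them more positive in OE1. The genotypes thus differed in this sum without salt and overlapped with it. The part of an unequal share of green or plastid-rich cells in these interactions was not tested. Without the whole photosynthesis list, 2803 interaction genes remain.

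**Figure D5:**
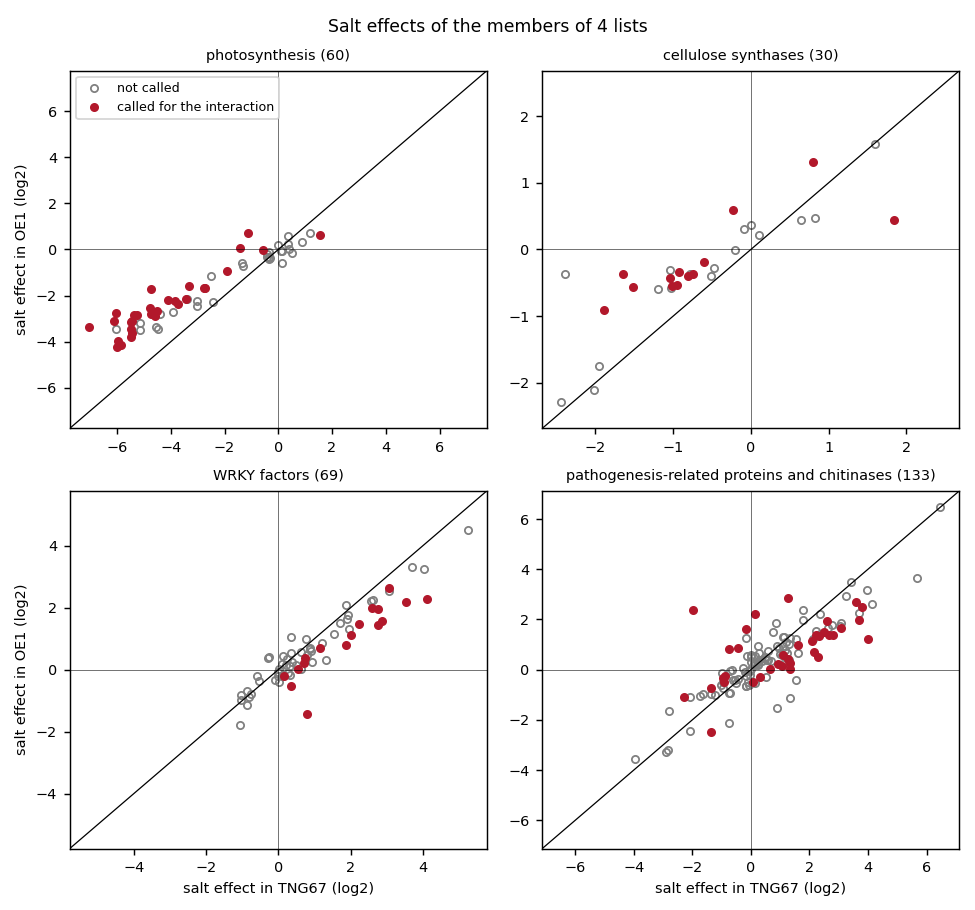
Salt effect (log2) of each member in OE1 (vertical axis) and TNG67 (horizontal axis) for 4 lists; filled points are called for the interaction and the diagonal marks equal effects. The 29 photosynthesis and 12 cellulose synthase genes that were more positive in OE1 lie above the diagonal, and the 17 WRKY genes lie below it.

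The AP2/ERF family, to which the overexpressed gene belongs, had 7 of 81 members called, 8.64%, below the share of all genes. Of these 3 were more positive and 4 more negative, numbers that were 1 and 2 without replicate 1 of OE1 at 0 mM. Without replicate 1 of TNG67 at 0 mM 1 was more positive, and without replicate 2 of OE1 at 0 mM or replicate 1 of TNG67 at 150 mM 2 were more negative. With libraries scaled by total reads 5 were more positive and 3 more negative, and with DESeq2 4 and 2, so no direction can be given for this family. Os09g0434500, an ethylene response factor 2-like gene, had 5651, 5150.4 and 5099 normalized counts in OE1 at 150 mM and 4047, 4930.3 and 4545 at 0 mM, against 3922, 3759.9 and 3887 in TNG67 at 150 mM and 6265, 6014 and 7528 at 0 mM, and the interaction was 1.01 ± 0.12 (SE, adjusted p = 6.45e-05). Both OE1 groups lay between those of TNG67. Os03g0860100, an ethylene-responsive factor, was lost as a rise, with a salt effect of 0.15 in OE1 and 2.27 in TNG67. Ubiquitin and F-box genes, which mark proteins for breakdown, had 64 of 747 called, 8.57%. Of these 16 were more positive and 48 more negative in OE1, against 7 and 26 without replicate 1 of OE1 at 0 mM or replicate 1 of TNG67 at 0 mM, 8 and 31 without replicate 1 of TNG67 at 150 mM and 10 and 30 without its replicate 2. The more positive ones were 10 without replicate 1 and 7 without replicate 2 of OE1 at 150 mM, and 9 without replicate 2 of TNG67 at 0 mM. With libraries scaled by total reads 24 were more positive and 30 more negative. Genes without a known function had 426 of 5726 called, 7.44%, and non-coding transcripts 34 of 620, 5.48%, both from lists with lower values. By chromosome, the share called ranged from 10.2 to 12.6%.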

How the data were processed

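Roots of OE1 and TNG67 at 150 and 0 mM NaCl were sequenced in 12 libraries, 3 for each of 4 groups. Per the labels and the methods of the study, reads were base-called with CASAVA, trimmed with Trimmomatic 0.38 and aligned to IRGSP 1.0 with HISAT2 2.1.0. The counter and the normalization are not given in the sources used here. The deposited values are a signal, that is, read counts that the authors divided by a size factor for each library; they are called normalized counts. Whole reads were recovered from them, every value lying within 2.6e-05 reads of a whole number, and the factors lay within 0.0916% of median-ratio factors over the 12 libraries, so both deposited tables share 1 scale. The libraries totalled 16326661 to 22426883 reads. The SE of the interaction comes from the spread between libraries within groups, pooled over the 4 groups. Limma also draws this spread toward that of other genes of similar level. The SE had a median of 0.189, and of 0.618 for genes with a mean below 20.

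The 24922 genes listed at both NaCl levels were fitted with limma 3.58.1 (trend, robust) in R 4.3.3 on log2(normalized count + 1), with 4 groups and no further term, and p-values were adjusted by Benjamini-Hochberg over all genes. Fold changes are on that scale, which understates changes of low genes. The methods name 3 biological replicates of pooled seedlings, and p-values measure only the spread between these libraries.

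The members and lists were chosen with earlier results of these data known. Lists were read from the deposited gene descriptions. Apart from OsERF106MZ, OsNPC3 and the root markers, named genes were called. In each shape and direction they were the 4 with the largest interaction, among genes with a mean of at least 50 normalized counts and a described function. Without that filter, the 4 with the smallest p in each list and the 10 with the smallest p of all were taken. The lists of genes without a known function and of non-coding transcripts gave no names. OsERF106MZ, OsAO3 and OsNPC3 were also set as genes of the study. A part is printed. Named outside these rules, after their values were seen, were Os02g0830200, Os12g0139400, Os07g0552800 and the interaction of OsRCc3. Means were below 50 for OsAO3 and for Os05g0276100, Os03g0860100, Os02g0218700, Os10g0439200 and Os03g0155700, which were chosen by list. Alternatives were edgeR 4.0.16, DESeq2 1.42.0 and limma-voom on recovered reads, other scalings, pseudocounts, filters and thresholds, a replicate block, and each library left out. No sequences are printed.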

Additional observations from a re-analysis of the deposited data

Results flagged for a closer look

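The difference between the salt effects of the genotypes, tested as the interaction term, is itself the first result to look at again, with 2833 genes called. The 10 genes with the smallest p had interactions of -1.92 (Os11g0213000), 1.53 (Os09g0248900), -1.91 (Os02g0266000), -4.21 (Os01g0794400), 1.00 (Os05g0363500), -2.16 (Os07g0585900), -1.54 (Os02g0680600), -1.25 (Os05g0209500), -1.03 (Os03g0835900) and -0.96 (Os02g0139000). In 8 of the 10 the salt effect was more negative in OE1. All 10 stayed called with any 1 library left out.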

How the results depend on the processing

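Left out in turn, the 12 libraries gave 1765 to 3432 interaction genes, 747 to 1732 more positive and 1018 to 1700 more negative in OE1, and 843 to 1589 weaker, 585 to 1279 lost, 71 to 115 stronger, 148 to 313 gained and 51 to 119 reversed genes; weaker and lost genes stayed at 81.4 to 84.8%. Without trend and robust fitting, 1529 genes were called, 698 more positive and 831 more negative, with 680 weaker, 573 lost, 63 stronger, 148 gained and 65 reversed. Interactions beyond 1 on the log2 scale numbered 787, 371 more positive and 416 more negative, with 356 weaker, 283 lost, 28 stronger, 76 gained and 42 reversed. With salt effects called only beyond a log2 fold change of 1 there were 465 weaker, 809 lost, 43 stronger, 119 gained and 4 reversed genes. Weaker and lost genes then made up 45% of all called genes, since fewer salt effects pass. With salt effects called at adjusted p below 0.01, 21 were reversed. The other alternatives stayed within 1.5 times of the count called, at 2833 with edgeR, 3078 with DESeq2 and 2638 with limma-voom, and more genes were more negative than more positive in OE1 under each of them except scaling by library totals (1780 more positive, 1175 more negative); leaving out replicate 3 of TNG67 at 150 mM also turned it (1732 and 1700). Replicate numbers showed no pairing of the libraries. For this, deviations from the group mean were correlated between libraries of different groups, over genes with a mean of at least 20. They correlated at -0.155 to 0.0462 for same-numbered libraries and at -0.0878 to 0.151 for others. A replicate block gave 2311 genes, 1016 more positive and 1295 more negative. No called gene among those chosen by the naming rule changed sign under any alternative, and 175 of 225 stayed called in all. Low values limit the test, with 67 of 2733 genes called at a mean below 20.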
